A study of Mus musculus with 18 samples.

Results

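tRNA-derived small RNAs (tsRNAs) were compared between lungs of mice given mesenchymal stem cells and lungs of untreated mice with the same model of chronic obstructive pulmonary disease (COPD). The comparison used 6 tsRNA libraries of the 18 libraries in the series and all 193 tsRNAs listed for them. The list itself depends on values: every listed tsRNA reached 20.15 deposited CPM in at least 1 library, some in 1 library alone. BMSC-treated mice (3 libraries) had been exposed to cigarette smoke, injected intraperitoneally with cigarette smoke extract, and given 4000000 BMSCs (the labels' name for the injected mesenchymal stem cells) in 100 µl of saline by the tail vein. COPD model mice (3 libraries) had the same smoke exposure and extract and a matching amount of saline. Control mice (3 libraries), which shared the estimate of spread and are given beside the comparison, had saline only among the treatments named. Strain, sex, age, the source of the cells, the day of sampling and whether each library was 1 mouse or a pool are not given in the labels. The p-values therefore measure the spread between libraries, which may be technical.

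Transfer RNAs are cut into stable fragments by several enzymes, and the fragments are named by the part they keep. Cleavage in the anticodon loop, best known for angiogenin under stress, gives long 5′ and 3′ pieces called tiRNA-5 and tiRNA-3. Other 5′ fragments end at points from the D loop to the anticodon loop, and 3′ fragments carry the added CCA end. Trailers (tRF-1) are not part of the mature tRNA: they are the 3′ ends that RNase Z cuts from the precursor. The 5′ fragments of glycine tRNA (GCC) are among the abundant tsRNAs of many mammalian tissues.

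The 193 tsRNAs were 14 to 40 bases long and came from 54 parent tRNAs, 40 nuclear (147 tsRNAs) and 14 mitochondrial (46 tsRNAs). By the names in the deposited table, 17 were tRF-5a (5′ ends of 14 to 16 bases), 10 tRF-5b (22 to 24 bases), 84 tRF-5c (28 to 32 bases) and 32 tiRNA-5 (20 to 36 bases). A further 27 were trailers, 11 tRF-3a, 3 tRF-3b, 6 internal tRF-2 and 3 tiRNA-3. Of the 193, 143 started at base 1 of a mature tRNA and 111 were the start of a longer listed tsRNA, so that many differ only in where they end. A total of 44 matched several tRNA genes and could not be assigned to 1 of them.

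The parent tRNAs on which the results turn are shown 5′ to 3′ as the deposited table gives them, with the CCA end, in DNA letters, and capitals mark the fragment. The glycine tRNAs gave most of the reads, with fragments of 32 bases that stop at the base before the anticodon.
tRF-1:32-Gly-GCC-2-M3: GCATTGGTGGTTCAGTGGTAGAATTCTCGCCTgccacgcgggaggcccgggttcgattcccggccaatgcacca
tRF-1:32-Gly-GCC-1: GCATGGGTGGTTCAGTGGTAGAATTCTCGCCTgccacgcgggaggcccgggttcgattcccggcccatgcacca
The second differs from the first within the fragment by T5G, counted from 1 at the 5′ end. The mitochondrial serine tRNA (GCT) gave the most abundant mitochondrial fragment.
tRF-1:22-chrM.Ser-GCT: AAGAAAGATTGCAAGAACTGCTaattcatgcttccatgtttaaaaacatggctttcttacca
Of the other mitochondrial 5′ fragments, 5 are shown because the results below turn on them.
tRF-1:16-chrM.Glu-TTC: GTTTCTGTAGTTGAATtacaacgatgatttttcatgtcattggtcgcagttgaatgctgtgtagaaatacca
tRF-1:15-chrM.Gln-TTG: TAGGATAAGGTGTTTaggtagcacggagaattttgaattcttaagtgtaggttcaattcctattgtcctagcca
tRF-1:29-chrM.Ser-TGA: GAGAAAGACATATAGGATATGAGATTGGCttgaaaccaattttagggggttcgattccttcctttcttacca
tRF-1:29-chrM.Met-CAT: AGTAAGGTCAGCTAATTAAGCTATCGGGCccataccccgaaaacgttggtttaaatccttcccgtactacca
tRF-1:32-chrM.Ile-GAT: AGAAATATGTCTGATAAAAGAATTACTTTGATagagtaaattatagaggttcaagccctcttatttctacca
In RefSeq (GRCm38.p6) these tRNA genes lie on the mitochondrial genome. They are TrnS2 (serine, GCT) at 11613 to 11671, TrnE (glutamate) at 14071 to 14139, TrnQ (glutamine) at 3772 to 3842, TrnS1 (serine, TGA) at 6870 to 6938, TrnM (methionine) at 3845 to 3913 and TrnI (isoleucine) at 3706 to 3774. The table used gives no strand, and their lengths matched those of the deposited sequences without the CCA. The nuclear tRNAs shown have several gene copies, and no position is given for them. A leucine tRNA gave both a fragment of 16 bases and a tiRNA-5 of 35 bases that ended at the first base of the anticodon, shown in that order, and a second leucine tRNA gave a fragment of the same length.
tRF-1:16-Leu-TAG-3: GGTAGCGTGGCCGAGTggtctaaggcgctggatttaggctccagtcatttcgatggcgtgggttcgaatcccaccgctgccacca
tiRNA-1:35-Leu-TAG-3: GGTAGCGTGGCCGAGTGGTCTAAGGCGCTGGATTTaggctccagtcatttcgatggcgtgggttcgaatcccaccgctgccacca
tRF-1:16-Leu-CAG-1-M3: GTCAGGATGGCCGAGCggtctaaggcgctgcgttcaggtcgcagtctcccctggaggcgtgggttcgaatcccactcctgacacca

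Depth and composition differed between libraries within each group. Listed counts were 1501927, 480002 and 1742029 in BMSC-treated libraries 1, 2 and 3 and 1151403, 1137825 and 440448 in COPD model libraries 1, 2 and 3, which were 44.8% to 70.6% of the library totals implied by the deposited CPM. BMSC-treated 2 and COPD model 3, with control 2, were the shallowest and stood apart on the first principal component (49.5% of the variance). Levels below are normalised CPM (counts scaled to a common library size of listed counts with TMM factors), on which the 3 counts that a count of 0 allows correspond to 2.57 to 5.11 in the 6 libraries (counting error only). In the mRNA libraries of the same groups none of 24 markers of lung and other cell types was at 0, and 6 were lower in every BMSC-treated library than in every COPD model library, with none higher. These were 2 of 4 alveolar type 2 markers, 2 of 3 alveolar type 1 markers and 2 of 3 club cell markers. The alveolar type 2 markers summed to 799 to 2228 FPKM in BMSC-treated libraries and 2785 to 4668 in COPD model libraries, with Sftpc, a surfactant protein gene, overlapping at 614 to 1606 and 1446 to 3249. The alveolar type 1 markers summed to 128 to 251 FPKM after BMSCs and 333 to 556 in the COPD model. The club cell markers summed to 9664 to 37662 FPKM after BMSCs and 164120 to 256850 in the COPD model, mostly Scgb1a1. None of the ciliated, endothelial, mesenchymal stem cell, cardiac muscle or red cell markers was without overlap. Lower FPKM was not particular to these markers: the median log2 change of all 11765 genes tested was -0.75. With FPKM rescaled without Scgb1a1 and mitochondrial genes, that median was -0.15. The share of all genes without overlap is not given here. The part of these marker levels in the tsRNA values was not tested. In whole lung tissue, fewer cells of a type and less RNA per cell cannot be told apart.

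The shortest 5′ fragments, tRF-5a, were higher after BMSC treatment. Their summed level was 1996, 1718 and 1517 normalised CPM in the BMSC-treated libraries, against 784, 576 and 854 in the COPD model libraries, with 897, 1069 and 831 in control libraries. Every BMSC-treated library lay above every COPD model library. The log2 change of the sum was 1.24 ± 0.33 (SE, n = 3 each; adjusted p = 0.0215, edgeR quasi-likelihood test, Benjamini-Hochberg over 9 types). It was the 1 type sum of 9 (11.1%) that passed. All 17 tRF-5a members had a log2 change above 0, against 86 of the 191 tsRNAs tested (45%), and the median was 0.83 against -0.10 for all. With no TMM factors 15 of the 17 were above 0, and without COPD model 3 it was 16. Some members reached the 20.15 deposited CPM of the list in a BMSC-treated library alone. tRF-1:16-Leu-CAG-1-M3 had 20.4 in BMSC-treated 3 and at most 16.8 elsewhere. The count of 17 is therefore partly set by the listing. The sum's log2 change stayed between 1.09 and 1.46 under all 17 alternatives, and the call held under 7 of them. It did not pass without BMSC-treated 1 (adjusted p = 0.0815), BMSC-treated 2 (0.056), COPD model 1 (0.106), COPD model 2 (0.0631), control 1 (0.0676) or control 3 (0.0568), nor with library totals in place of TMM factors (0.366), no factors (0.995), the replicate number as a block (0.196) or only the 6 libraries (0.291; all by edgeR).

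**Figure D1:**
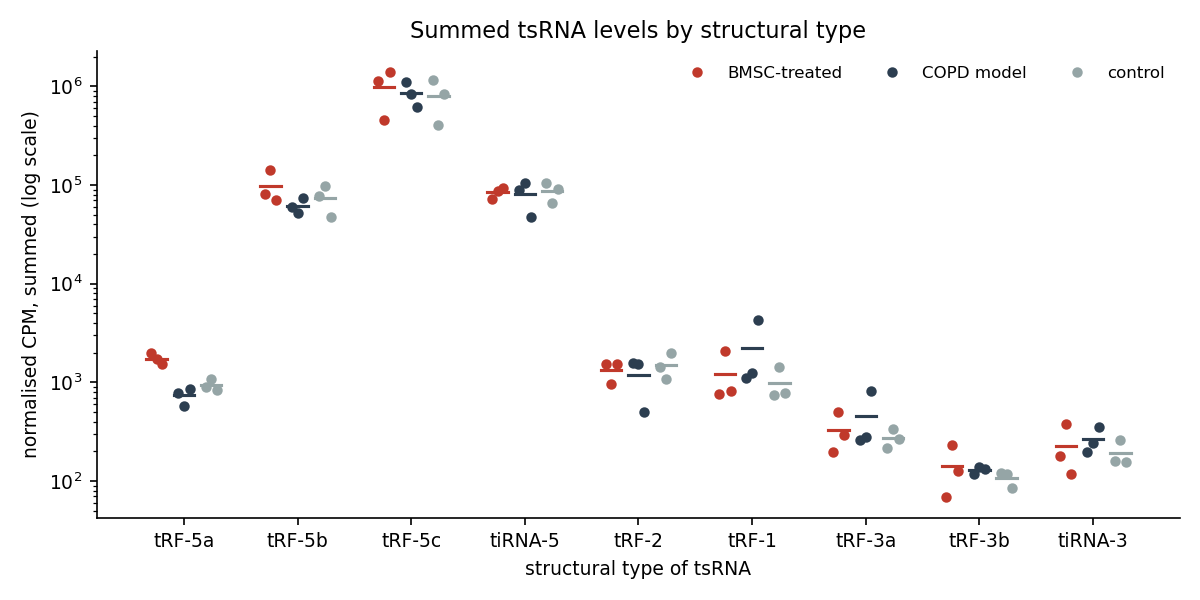
Summed normalised CPM (log scale) of each of the 9 structural types of tsRNA, 1 point per library and a bar at the mean of 3 libraries, for BMSC-treated, COPD model and control lungs. For tRF-5a the 3 BMSC-treated libraries lie between 1517 and 1996, above the COPD model libraries at 576 to 854, and in the other types the BMSC-treated and COPD model groups overlap.

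Different members were high in different BMSC-treated libraries. The 6 mitochondrial tRF-5a summed to 1277, 1261 and 290 normalised CPM after BMSCs, against 391, 209 and 344 in the COPD model. The 11 nuclear tRF-5a summed to 719, 457 and 1227, against 393, 367 and 510. Each part alone overlapped between the groups, since BMSC-treated 3 was low in the mitochondrial sum and BMSC-treated 2 in the nuclear one. tRF-1:15-chrM.Gln-TTG, from the tRNA that decodes glutamine in mitochondria, held the largest part of the type, 27.7% of it after BMSCs and 16.3% in the COPD model. Leaving out any 1 member kept every BMSC-treated sum above every COPD model sum, with log2 ratios of the means between 1.005 (without that fragment) and 1.30.

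Among the tRF-5a, 6 came from leucine tRNAs. Together they stood at 601, 274 and 964 normalised CPM in BMSC-treated libraries, against 281, 242 and 382 in COPD model libraries, so that BMSC-treated 2 lay within the COPD model range. tRF-1:16-Leu-AAG-2-M3 had 82.3, 66.6 and 98.1 normalised CPM after BMSCs, against 28.2, 22.9 and 47.7 (log2 change 1.33 ± 0.65, adjusted p = 0.377, edgeR). tRF-1:16-Leu-CAG-1-M3 had 25.7, 26.1 and 48.6, against 17.4, 21.2 and 13.6. Neither passed, although the groups did not overlap in either. The most abundant, tRF-1:16-Leu-AAG-1-M2, had 219, 84.0 and 455, against 97.7, 75.9 and 119 (adjusted p = 0.357, edgeR).

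The leucine tRNA TAG-3 gave its short fragment and its tiRNA-5 in different proportions in the 2 groups. The 16-base fragment made up 72.8%, 47.2% and 82.2% of both in BMSC-treated libraries, against 29.2%, 29.8% and 33.6% in COPD model libraries and 28.2%, 34.2% and 49.6% in control libraries. The BMSC-treated and COPD model groups did not overlap. The longer piece, tiRNA-1:35-Leu-TAG-3, had 70.3, 82.5 and 61.2 normalised CPM after BMSCs, against 235, 175 and 290 in the COPD model (log2 change -1.71 ± 0.58, adjusted p = 0.14, edgeR), and the fragment 189, 73.8 and 283, against 96.6, 74.1 and 147. Neither passed. This pair was chosen after its values were seen, so the share is given with no test.

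No single tsRNA passed over the whole table. At an adjusted p under 0.05, 0 of 191 (0%) were called by edgeR's quasi-likelihood test, and DESeq2 called 1. At an unadjusted p under 0.05, 9 (4.71%) were higher and 16 (8.38%) lower, and the groups did not overlap for 7 higher (3.66%) and 16 lower (8.38%). Of the 9 higher, 5 were tRF-5a, 3 tRF-5c and 1 tiRNA-5, and 7 were mitochondrial. Of the 16 lower, 10 were trailers, 4 tiRNA-5 and 2 tRF-5c, and all were nuclear. The plot of log2 changes by type shows these members at its 2 ends.

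**Figure D2:**
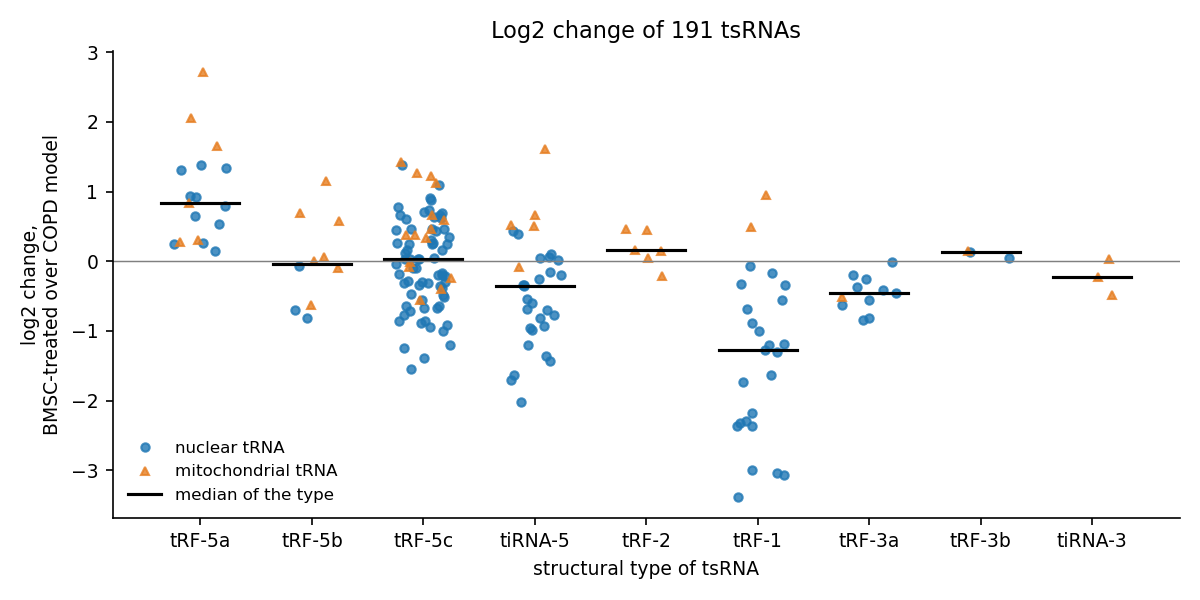
Log2 change (BMSC-treated over COPD model, edgeR) of each of the 191 tsRNAs tested, by structural type, with circles for nuclear and triangles for mitochondrial parent tRNAs and a bar at the median of the type. All 17 tRF-5a lie above 0 and all 23 nuclear trailers below 0, while the 84 tRF-5c spread on both sides of a median of 0.03. Some trailers are listed through COPD model 3 alone, and some tRF-5a through a BMSC-treated library alone. Without COPD model 3, 7 of the 23 trailers and 16 of the 17 tRF-5a were above 0.

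Mitochondrial fragments leaned to the higher side. Of the 46 tsRNAs from mitochondrial tRNAs, 34 had a log2 change above 0 and the median was 0.38, against 52 of 145 and -0.31 for nuclear ones. With DESeq2's size factors 38 of 46 were above 0, with library totals 31, with no factors 36, and without the 3 shallowest libraries 28. These 3 scalings put the median log2 change of all tsRNAs at 0.03, -0.27 and -0.31, against -0.10 with TMM factors. In the separate mRNA libraries, mitochondrial transcripts made up 92.2%, 70.8% and 55.6% of FPKM in BMSC-treated libraries, against 30.04%, 28.3% and 23.9% in COPD model libraries. They made up 89.3%, 65.1% and 46.9% in control libraries, so the high share was not particular to BMSC treatment. The part of these transcripts in the tsRNA values was not tested. As a share of listed counts, mitochondrial tsRNAs were 11.9% ± 10.1 after BMSCs and 7.60% ± 3.03 in the COPD model (SD, n = 3 each; two-sided exact permutation p = 0.7, where 3 against 3 cannot go below 0.1).

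Fragments of the mitochondrial glutamate and glutamine tRNAs were called higher as parent sums. The glutamate sum, which is tRF-1:16-chrM.Glu-TTC alone, was 56.6, 68.0 and 19.8 normalised CPM after BMSCs, against 4.34, 8.83 and 8.52 in the COPD model and 36.1, 32.4 and 27.6 in control. These rest on 66, 47 and 22 counts, against 4, 10 and 5. All BMSC-treated libraries lay above all COPD model libraries. The log2 change was 2.71 ± 0.74 (adjusted p = 0.0197 over 54 parent sums, edgeR), and over the 191 single tsRNAs the same fragment had an adjusted p of 0.0636. The call held under 8 of 17 alternatives. It was lost with library totals (adjusted p = 0.197, edgeR), no factors (0.524), only the 6 libraries (0.201) and without the 3 shallowest libraries (0.104). It was also lost without BMSC-treated 1 (adjusted p = 0.0829), BMSC-treated 2 (0.0641), COPD model 1 (0.0958), COPD model 3 (0.0549) or control 3 (0.0739, edgeR).

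The glutamine sum, of 5′ fragments of 14, 15 and 22 bases and 1 internal fragment, was 1161, 1026 and 267 normalised CPM after BMSCs, against 354, 232 and 264 in the COPD model. BMSC-treated 3 lay within the COPD model range. The log2 change was 1.53 ± 0.49 (adjusted p = 0.0452, edgeR), and the call held under 3 of 17 alternatives, with values without BMSC-treated 1 of 1.19 and without BMSC-treated 3 of 1.95. Its 15-base fragment had 839, 576 and 113, against 150, 74.1 and 145 (adjusted p = 0.0873, edgeR), and its 22-base fragment, tRF-1:22-chrM.Gln-TTG, 156, 303 and 117, against 110, 83.9 and 64.8, without overlap (adjusted p = 0.406, edgeR).

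Other mitochondrial 5′ fragments had larger values after BMSCs but did not pass. tRF-1:29-chrM.Met-CAT, from the tRNA that starts and extends mitochondrial proteins, had 590, 1072 and 565 normalised CPM, against 290, 305 and 358 (log2 change 1.22 ± 0.57, adjusted p = 0.377, edgeR). tRF-1:29-chrM.Ser-TGA had 98.6, 97.0 and 116, against 61.9, 23.8 and 30.7 (adjusted p = 0.357, edgeR). In both, the groups did not overlap. Of the 5 fragments of the serine tRNA TGA, 4 had log2 changes above 0. Without COPD model 3 it was 2, and without the 3 shallowest libraries also 2. Their sum overlapped between the groups (log2 change 0.44 ± 0.49, adjusted p = 0.731, edgeR). Isoleucine fragments were high in BMSC-treated 1 and 2 only: tRF-1:32-chrM.Ile-GAT had 1542, 3321 and 615, against 875, 677 and 971, and tRF-1:15-chrM.Ile-GAT 216, 436 and 33.3, against 104, 55.6 and 57.9. tRF-1:31-chrM.Ile-GAT had 123, 124 and 54.9, against 40.2, 57.4 and 27.3, and tiRNA-1:31-chrM.Pro-TGG 25.7, 68.0 and 10.8, against 15.2, 12.4 and 5.11. All 5 isoleucine fragments and all 5 methionine fragments had log2 changes above 0, with medians of 1.12 and 0.59, and without the 3 shallowest libraries it was 5 and 4.

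The serine tRNA GCT dominated the mitochondrial reads without passing. Its 22-base fragment had 79500, 139079 and 67653 normalised CPM in BMSC-treated libraries, against 57124, 49328 and 71064 in COPD model libraries (log2 change 0.69 ± 0.53, adjusted p = 0.716, edgeR). Its 23-base fragment, tRF-1:23-chrM.Ser-GCT, had 774, 1436 and 1135, against 1019, 1047 and 1140. Among internal fragments, tRF-25:38-chrM.His-GTG had 955, 728 and 1168, against 1123, 1087 and 373, and tRF-26:39-chrM.His-GTG 155, 47.8 and 98.97, against 122, 151 and 20.5. Among 3′ pieces, tiRNA-32:71-chrM.His-GTG had 142, 298 and 95.4, against 157, 201 and 264, and tiRNA-32:70-chrM.His-GTG-M1-38:C>A 28.3, 44.9 and 12.6, against 31.5, 30.01 and 57.9. All of these overlapped between the groups, and none passed. The fragments of the mitochondrial tryptophan tRNA that carry its 3′ part overlapped too: tRF-54:70-chrM.Trp-TCA had 62.6, 169 and 80.97, against 97.7, 117 and 233, and tRF-51:70-chrM.Trp-TCA 49.7, 145 and 87.3, against 92.3, 113 and 47.7. Among nuclear 3′ fragments, tRF-59:75-Gln-CTG-2 had 34.3, 111 and 52.2, against 53.2, 52.96 and 149.97, and tRF-53:74-Gly-CCC-2-M4 10.3, 43.4 and 35.1, against 13.03, 15.9 and 57.9, also with overlap.

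**Figure D3:**
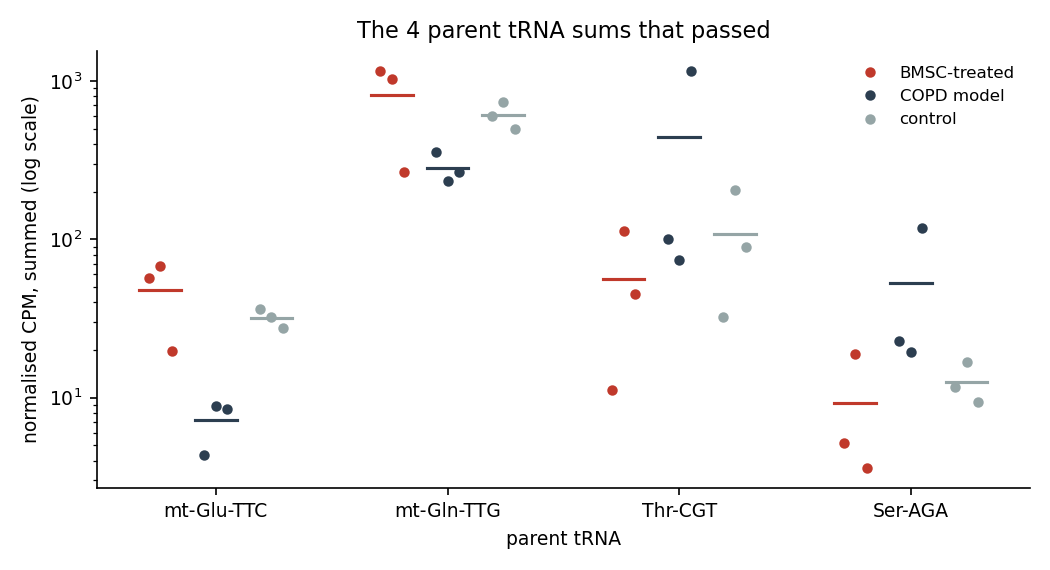
Summed normalised CPM (log scale) of the fragments of the 4 parent tRNAs that passed among 54, 1 point per library and a bar at the mean of 3 libraries, for BMSC-treated, COPD model and control lungs. The mitochondrial glutamate fragment lies at 19.8 to 68.0 after BMSCs and at 4.34 to 8.83 in the COPD model, and the Thr-CGT trailers reach 1150 in COPD model 3 alone.

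Most trailers had lower values after BMSC treatment, and COPD model 3 had the highest sum. Their sum was 763, 2063 and 810 normalised CPM in BMSC-treated libraries, against 1108, 1231 and 4288 in COPD model libraries, a log2 change of -0.87 ± 0.57 that did not pass (adjusted p = 0.462, edgeR). All 23 nuclear trailers tested had a log2 change below 0, with a median of -1.31, and the 2 mitochondrial trailers were above 0. Without COPD model 3, 7 of the 23 were above 0 and their median was -0.38, and of all 25 trailers tested 9 were above 0. DESeq2's size factors put 1 of the 23 above 0. Some nuclear trailers reached the 20.15 deposited CPM of the list in COPD model 3 alone. tRF-+1:T15-Asn-GTT-3-8 had 23.5 deposited CPM there and at most 7.21 in any other library. Such members are listed through the group where they were high, so the count of 23 is partly set by the listing.

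Of the 54 parent sums, 4 (7.41%) passed, and the 2 lower were trailers. The Thr-CGT sum was 11.1, 113 and 45.0 normalised CPM after BMSCs, against 101, 74.1 and 1150 in the COPD model, a log2 change of -2.98 ± 0.80 (adjusted p = 0.0197, edgeR). The groups overlapped, since BMSC-treated 2 lay above COPD model 1 and 2. The high value was that of COPD model 3, and without it the log2 change was -0.66 (adjusted p = 0.729, edgeR). The call held under 6 of 17 alternatives. It was lost with edgeR's robust fit (adjusted p = 0.505), DESeq2 size factors (0.147), library totals (0.199), no factors (0.524) and only the 6 libraries (0.201). It was also lost without BMSC-treated 1 (0.0641), BMSC-treated 3 (0.212), control 2 (0.0716), control 3 (0.0941) or the 3 shallowest libraries (0.279, all by edgeR). Its 5 trailers, of 29 to 33 bases, are nested. tRF-+1:T30-Thr-CGT-1 had 4, 13 and 14 counts after BMSCs, against 19, 20 and 189, and tRF-+1:T31-Thr-CGT-1 4, 27 and 12, against 37, 30 and 218. tRF-+1:T32-Thr-CGT-1 had 5, 23 and 6 counts, against 21, 19 and 172, and tRF-+1:T29-Thr-CGT-1 0, 9 and 17, against 12, 12 and 73. The adjusted p of these 4 ran from 0.0636 to 0.331 (edgeR), and COPD model 3 was the highest library in each. The Ser-AGA sum fell to 5.15, 18.8 and 3.60, against 22.8, 19.4 and 118, without overlap (log2 change -2.58 ± 0.81, adjusted p = 0.0452, edgeR). Without COPD model 3 its log2 change was -1.29 (adjusted p = 0.404, edgeR), and it did not pass without BMSC-treated 1, BMSC-treated 3, control 2 or control 3 (adjusted p of 0.238, 0.236, 0.0716 and 0.136 in that order, edgeR). It held under 6 of 17 alternatives and was lost with DESeq2 size factors (0.147), library totals (0.199), no factors (0.524), only the 6 libraries (0.258), the block (0.0907) and without the 3 shallowest libraries (0.0538). Its trailers overlapped singly: tRF-+1:T15-Ser-AGA-2-2 had 4, 4 and 1 counts, against 15, 3 and 38, and tRF-+1:T14-Ser-AGA-2-2 2, 9 and 3, against 6, 19 and 31. Both reached the 20.15 deposited CPM of the list in COPD model 3 alone, at 42.6 and 34.7 in that order. The Ser-AGA call therefore rests on members listed through the group where they were high.

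Trailers of the initiator methionine tRNA, which starts cytosolic translation, did not pass, and 2 of the 3 listed were lower without overlap. tRF-+1:T15-iMet-CAT-1 had 19.7, 33.3 and 4.50 normalised CPM after BMSCs, against 46.7, 88.3 and 143 in the COPD model and 9.93, 16.7 and 15.3 in control. The BMSC-treated and COPD model groups did not overlap (log2 change -2.29 ± 0.72, adjusted p = 0.0873, edgeR). tRF-+1:T16-iMet-CAT-1 had 24.9, 39.1 and 16.2, against 47.8, 77.7 and 123 (adjusted p = 0.339, edgeR), and tRF-+1:T15-Asn-GTT-3-8 3.43, 5.79 and 1.80, against 7.60, 12.4 and 35.8 (adjusted p = 0.357, edgeR). The third initiator trailer, tRF-+1:T14-iMet-CAT-1-7, had 2.57, 27.5 and 6.30, against 7.60, 7.94 and 37.5, which overlap. The asparagine trailer stood at 2 to 4 counts in the BMSC-treated libraries, near the floor. The most abundant trailer, tRF-+1:T22-Arg-ACG-1-3, had 288, 808 and 292, against 347, 354 and 1041, and tRF-+1:T23-Arg-ACG-1-3 123, 382 and 134, against 197, 214 and 622, so that the shallow library of each group was the high one.

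No call was made for the tiRNA-5, a type named for ends in the anticodon loop. The type as listed includes tiRNA-1:20-chrM.Ser-GCT, of 20 bases, which ends short of that loop. It had 3367, 2194 and 3586 counts after BMSCs, against 2697, 2725 and 657. The tiRNA-5 sum was 72626, 86209 and 93573 normalised CPM in BMSC-treated libraries, against 89499, 105039 and 47730 in COPD model libraries (log2 change 0.06 ± 0.37, adjusted p = 0.876, edgeR). Among them 21 of 27 nuclear ones had a log2 change below 0, with a median of -0.60, against 93 of all 145 nuclear tsRNAs and -0.31. The 16 tsRNAs that were lower without overlap were 7 of 84 tRF-5c, 6 of 32 tiRNA-5 and 3 of 25 trailers tested. tiRNA-1:34-Lys-TTT-1 had 2.57, 13.0 and 8.10, against 17.4, 15.9 and 63.1 (log2 change -2.03 ± 0.86, adjusted p = 0.357, edgeR). The abundant ones overlapped between the groups: tiRNA-1:34-Glu-CTC-1 had 13318, 25060 and 28555, against 25689, 29463 and 11169, tiRNA-1:33-Gly-GCC-2-M3 28241, 16942 and 31549, against 27315, 38409 and 7832.5, and tiRNA-1:34-Lys-CTT-2 13411, 19701 and 11575, against 12164, 12767 and 8316.5. Of the 15 fragments of the glutamate tRNA TTC, 14 had log2 changes below 0 (median -0.78) and 1 above, against 86 above of all 191 (45%), and 6 were lower without overlap, against 16 of all 191 (8.38%). Their sum did not pass (log2 change -0.54 ± 0.36, adjusted p = 0.601, edgeR), and without the 3 shallowest libraries 12 of 15 were below 0 (median -0.24). tRF-1:29-Glu-TTC-1 had 18.9, 13.03 and 32.4, against 49.95, 30.01 and 112 (adjusted p = 0.357, edgeR), with BMSC-treated 3 above COPD model 2.

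Fragments of the glycine tRNA GCC made up 80.1% ± 13.2 of listed counts after BMSCs and 83.8% ± 3.40 in the COPD model (SD, n = 3 each; two-sided exact permutation p = 0.9). Within them, the proportions of fragments ending 1 base apart differed between the groups. In BMSC-treated libraries the 31-base fragment was 31.8%, 33.3% and 32.3% of the 5′ fragments of Gly-GCC-2, against 22.5%, 21.9% and 21.5% in COPD model libraries and 25.6%, 27.2% and 27.5% in control libraries. The 32-base fragment was 41.1%, 48.0% and 41.1% after BMSCs, against 62.3%, 59.7% and 58.3% in the COPD model and 51.6%, 54.7% and 51.8% in control. Neither share overlapped between BMSC-treated and COPD model libraries, and the control libraries lay between the 2 groups.

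Taken against each other alone, the 31-base fragment of Gly-GCC-2 was 43.6%, 40.9% and 44.0% of the 31- and 32-base counts after BMSCs, against 26.6%, 26.9% and 26.98% in the COPD model. The means were 42.9% ± 1.67 after BMSCs and 26.8% ± 0.21 in the COPD model (SD, n = 3 each), with 33.7% ± 0.85 in control, a difference of 16.1 percentage points with a two-sided exact permutation p of 0.1, the smallest that 3 against 3 can give. Each share rests on 228944 to 1093033 counts and needs no scaling between libraries. The difference was 15.5 to 17.02 points when each library was left out in turn, the shallow ones included. This share was chosen after its values were seen.

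The same share was computed for all 17 tRNAs with both lengths listed. BMSC-treated libraries lay wholly above COPD model libraries in 4, all glycine tRNAs, and wholly below in 2, both lysine tRNAs, with a smallest adjusted p of 0.283 over the 17. Gly-GCC-1 had 42.0%, 34.1% and 43.5%, against 25.7%, 24.8% and 27.5%, and Gly-CCC-3-M2 40.3%, 40.8% and 43.2%, against 26.8%, 26.7% and 25.5%. Gly-CCC-2 had 31.9%, 21.95% and 34.7%, against 20.2%, 21.3% and 17.1%. These 4 tRNAs are not independent: over 32 bases Gly-GCC-1 and Gly-CCC-3-M2 differ from Gly-GCC-2 at 1 base each and Gly-CCC-2 at 2, and whether reads of 1 were counted for another was not tested. The fifth glycine tRNA, Gly-TCC-1, had 7.94%, 4.11% and 5.06% after BMSCs, against 6.82%, 7.26% and 4.64% in the COPD model, which overlap. Lys-CTT-3 had 4.43%, 3.74% and 3.91%, against 5.63%, 5.93% and 10.2%.

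**Figure D4:**
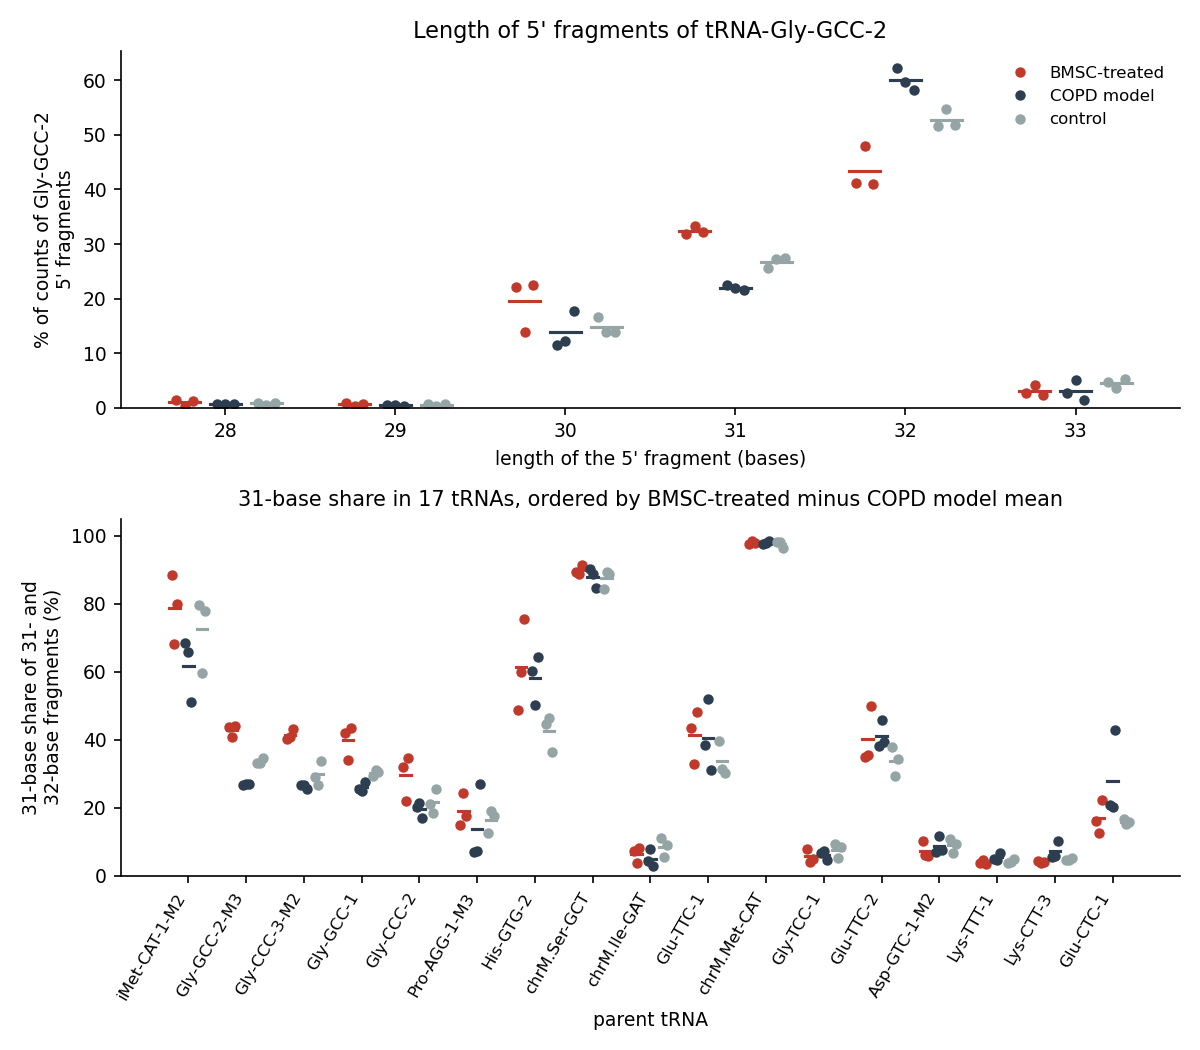
Upper plot: share (%) of the counts of Gly-GCC-2 5′ fragments at each length from 28 to 33 bases, 1 point per library and a bar at the mean, for BMSC-treated, COPD model and control lungs. Lower plot: the 31-base share (%) of the 31- and 32-base counts for 17 tRNAs, where Gly-GCC-2-M3, Gly-CCC-3-M2, Gly-GCC-1 and Gly-CCC-2 have all BMSC-treated libraries above all COPD model libraries.

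Between the levels themselves no glycine fragment passed. tRF-1:31-Gly-GCC-2-M3 was 24.2% of listed counts after BMSCs and 17.2% in the COPD model (log2 change 0.78 ± 0.53, adjusted p = 0.628, edgeR), tRF-1:30-Gly-GCC-2-M3 15.03% and 10.7%, and tRF-1:32-Gly-GCC-2-M3 32.1% and 46.9% (log2 change -0.29 ± 0.52, adjusted p = 0.9, edgeR). tRF-1:32-Gly-GCC-1 was 2.39% and 3.46%, tRF-1:31-Gly-GCC-1 1.51% and 1.20% and tRF-1:30-Gly-GCC-1 1.15% and 0.937%. The short tRF-1:16-Gly-GCC-2-M3 had 25.7, 31.8 and 129 normalised CPM after BMSCs, against 10.9, 24.7 and 40.9 (adjusted p = 0.438, edgeR), high in BMSC-treated 3. The count-weighted mean length of all tsRNAs was 30.3 ± 0.68 bases after BMSCs and 30.9 ± 0.36 in the COPD model (SD, n = 3 each; two-sided exact permutation p = 0.3). As shares of listed counts the 9 types gave no adjusted p under 1 (two-sided exact permutation tests), and the tRF-5a share was 0.155%, 0.247% and 0.0968% after BMSCs, against 0.0627%, 0.0574% and 0.114%, which overlap. As a share of the implied library totals tRF-5a was 0.109%, 0.111% and 0.0636% after BMSCs, against 0.0411%, 0.0336% and 0.0561%, without overlap (two-sided exact permutation p = 0.1, the smallest possible).

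Genes of tRNA cutting, repair and modification were examined in the mRNA libraries of the same groups. Of 40 such genes, 35 were in the table and 32 were tested, and 0 passed, against 15 of 11765 genes (0.127%; limma on log2(FPKM + 1)). At an unadjusted p under 0.05, 3 of the 32 were lower, against 1271 of all 11765 (10.8%). That count was 17 of 32 with the replicate block (5461 of all genes), 12 of 31 without BMSC-treated 3 (3867 of all) and 5 of 32 without control 1 (2029 of all). It was 0 without BMSC-treated 1 (196 of all), COPD model 2 (349) or COPD model 3 (464), and with a pseudocount of 0.1 (497). In each of these settings 0 of the list passed the adjusted threshold. The median log2 change of the 32 was -0.90, against -0.75 for all genes, and with FPKM rescaled without Scgb1a1 and mitochondrial genes -0.20 against -0.15. Ang, which encodes angiogenin, had 2.62, 9.42 and 12.9 FPKM after BMSCs, against 13.2, 13.9 and 17.4 in the COPD model. Elac2, the RNase Z that releases trailers, had 0.286, 1.07 and 1.81 FPKM, against 1.81, 3.45 and 4.32 (log2 change -1.05 ± 0.48, adjusted p = 0.375, limma). Ago4, an Argonaute protein that binds small RNAs, had 0.221, 2.26 and 2.70, against 3.45, 5.99 and 5.79 (adjusted p = 0.375, limma). Alkbh1, which removes methyl groups from tRNA, had 0.221, 0.914 and 1.34, against 1.74, 3.12 and 2.21 (adjusted p = 0.375, limma). Drosha, a microRNA nuclease, Rpp38, a subunit of RNase P, and Rnaset2b, a lysosomal ribonuclease, followed by p and did not pass. The lowest of the 6 values of Ang, Elac2, Ago4 and Alkbh1 was that of BMSC-treated 1, the library with 92.2% mitochondrial transcripts.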

How the data were processed

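Small RNA of lung tissue was pretreated to remove modifications that block library making and then sequenced, per the labels' protocols. The authors deposited raw counts per tsRNA and the same tsRNAs in CPM, and FPKM per gene for mRNA, per the file headers. cutadapt, Bowtie and StringTie and build mm10 are named in the submitters' processing notes. Every listed tsRNA reached 20.15 CPM in at least 1 library, so rarer ones are not seen.

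Counts were tested in edgeR 4.0.16 (quasi-likelihood, TMM factors, filterByExpr) over all 9 tsRNA libraries, contrast BMSC-treated minus COPD model, with Benjamini-Hochberg adjustment. This kept 191 of 193 tsRNAs (common biological coefficient of variation 0.545). Sums per type and per parent tRNA used the same factors. Shares and lengths were tested by exact permutation in scipy 1.17.1. FPKM was tested with limma 3.58.1 on log2(FPKM + 1), for genes of 1 FPKM or more in at least 3 libraries. Scripts were tested on simulated data. The simulated tsRNA counts had less spread than the deposited ones, so they do not show how the test behaves at the spread seen here. DESeq2 1.42.0, other scalings, filters and left-out libraries were alternatives.

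The 12 tsRNAs of smallest p in each direction, the 2 most abundant of each type, the 10 most abundant and the 6 enzyme genes of smallest p were named. Any other named feature was chosen after its values were seen. Members and lists were chosen with earlier results of these data known. Sequences are those of the deposited table, shown for mitochondrial tRNAs and for nuclear families whose RefSeq gene numbers run without a gap. Coordinates are RefSeq's.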

Additional observations from a re-analysis of the deposited data

How the results depend on the processing

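At most 6 single tsRNAs were called under any alternative. DESeq2 size factors gave 5, library totals 2, the 6 libraries alone 3, DESeq2's Wald test 1, and the other scalings, filters and limma 0. Leaving out each library gave 0 to 6 tsRNAs, 0 to 1 type sums and 0 to 4 parent sums. Library totals, no factors and the 6 libraries alone gave 0 type sums and 0 parent sums, and DESeq2 size factors 1 parent sum. Without the 3 shallowest libraries, an alternative chosen after seeing the data, 1 parent sum was called, shared leucine fragments in place of those named above.

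The log2 change of the tRF-5a sum was 1.12 with library totals (adjusted p = 0.366, edgeR), 1.09 with no factors (0.995) and 1.25 with the 6 libraries alone (0.291), none past the threshold, and 1.09 to 1.42 without each library, and 1.46 without the 3 shallowest libraries (past the threshold). The cause was not tested. Without each library the parent sums ranged from -3.96 to -0.66 for Thr-CGT, -3.53 to -1.29 for Ser-AGA, 2.39 to 3.09 for mitochondrial Glu-TTC and 1.19 to 1.95 for mitochondrial Gln-TTG.

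BMSC-treated and COPD model libraries of the same number had deviations that correlated at 0.54, -0.36 and -0.08 for numbers 1, 2 and 3, and BMSC-treated and control libraries at 0.72, 0.74 and 0.20. The numbers were therefore not taken to pair the 2 groups compared. With the replicate block 3 tsRNAs, 0 type sums and 2 parent sums were called, and the tRF-5a log2 change was 1.24 (adjusted p = 0.196, edgeR).

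As percentage points of library totals, tRF-5c was 0.891 higher and tiRNA-5 -0.164, both opposite in sign to the shares of listed counts. Without each library the differences in share ran from -0.211 to 0.0303 points for trailers, -0.0208 to 0.0228 for tRF-2, -0.0354 to 0.0111 for tRF-3a, -0.00697 to 0.0070 for tRF-3b, 0.0479 to 0.123 for tRF-5a, -1.17 to 6.82 for tRF-5b, -7.90 to 3.58 for tRF-5c, -0.0183 to 0.00515 for tiRNA-3 and -2.19 to 1.25 for tiRNA-5. The mitochondrial share ran from -1.45 to 7.76 points and the mean length from -0.820 to -0.187 bases.

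Abundant tsRNAs with log2 changes near 0 changed sign. With library totals, no factors, the replicate block and without the 3 shallowest libraries, tRF-26:39-chrM.His-GTG was -0.077, -0.13, -0.020 and -0.00045. With limma at either pseudocount and without the 3 shallowest, tRF-51:70-chrM.Trp-TCA was -0.031, -0.010 and -0.50. tRF-53:74-Gly-CCC-2-M4 was -0.15 with library totals, -0.15 with no factors, -0.00098 with the 6 libraries, and -0.018 and -0.029 with limma. tRF-1:23-chrM.Ser-GCT was -0.053 with library totals, -0.13 and -0.12 with limma, and -0.024 without the 3 shallowest. tiRNA-1:33-Gly-GCC-2-M3 was -0.079 with library totals, -0.086 with no factors and -0.041 without the 3 shallowest. tiRNA-1:34-Glu-CTC-1 was -0.10 with library totals, -0.0032 with no factors, -0.089 and -0.089 with limma, and -0.31 without the 3 shallowest.

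Without each library the log2 changes that crossed 0 ran from -0.99 to 0.40 for tRF-+1:T22-Arg-ACG-1-3, -1.41 to 0.050 for tRF-+1:T23-Arg-ACG-1-3, -0.22 to 0.38 for tRF-25:38-chrM.His-GTG, -0.43 to 0.49 for tRF-26:39-chrM.His-GTG, -0.97 to 0.30 for tRF-59:75-Gln-CTG-2 and -0.31 to 0.45 for tRF-51:70-chrM.Trp-TCA. They ran from -0.31 to 1.01 for tRF-53:74-Gly-CCC-2-M4, -0.16 to 0.27 for tRF-1:23-chrM.Ser-GCT, -0.61 to 0.038 for tRF-1:32-Gly-GCC-2-M3, -0.80 to 0.085 for tiRNA-32:71-chrM.His-GTG, -0.36 to 0.54 for tiRNA-1:33-Gly-GCC-2-M3 and -0.31 to 0.28 for tiRNA-1:34-Glu-CTC-1. The 2 shallow libraries of the comparison limit tsRNAs of a few counts most.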
